A study of Homo sapiens with 13 samples.

Results

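The genes described here are 42 genes of mitosis, chosen by name, and all 42 were among the 56827 genes with a distinct symbol in the RNA-seq tables of H82 and H146. H82 (SCLC-N, the subtype marked by NEUROD1) and H146 (SCLC-A) are established, wild-type small cell lung cancer lines. Each line was either left untreated (3 libraries of H82 and 3 of H146) or kept for 14 days in 100 nM of FHD-286 (3 libraries of H82 and 4 of H146), with the drug renewed at each change. FHD-286 is an allosteric inhibitor of the ATPases SMARCA2 and SMARCA4, the motors of the SWI/SNF chromatin remodelling complexes, and no vehicle was named for the untreated cells. The question was whether RNA of the mitotic machinery changed with the inhibitor in each line, and whether the lines differed. Nothing in the labels says that the libraries of a group came from separate cultures, so the spread between them may be technical.

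Mitotic entry is driven by CDK1 bound to cyclin A or B, and the Aurora and Polo-like kinases then build the spindle. The spindle checkpoint holds the anaphase-promoting complex until every kinetochore is attached, after which securin and cyclin B are destroyed and the cell divides. Transcripts of this machinery peak late in the cell cycle under FOXM1 and the MYB-MuvB and DREAM complexes, which act through the cell cycle genes homology region, a short promoter element with the core TTTGAA or TTTAAA. Small cell lung cancer is known for rapid division and for loss of RB1.

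That element was looked for in the RefSeq promoter windows (GRCh38.p14, 250 bases before to 50 bases after the start), which held 34 of the 42 mitosis genes. TTTGAA or TTTAAA, on either strand, was found in 31 of the 34, or 91.2%, against 27.9% of all 27305 genes with a window and 22.0% of the 11306 of these that were tested in either line. Within the 50 bases before the start it was found in 21 of the 34, or 61.8%, against 5.98% of all genes and 4.57% of tested genes. CCAAT, the box bound by NF-Y, was found in 28 of the 34, against 39.7% of all and 42.9% of tested genes, and both elements together in 24 of the 34, against 11.2% and 9.31%. GGCGG, a GC-rich string, was found in all 34 of these genes, in 61.5% of all genes and in 88.5% of tested genes, and within the 50 bases before the start in 52.9% of the 34 and 59.0% of tested genes. A match is a description of the sequence and not a measured binding site. The 30 bases around the match nearest to the start are shown for 7 genes on which the results below turn, along the strand of the gene, with the match in capitals.
MKI67: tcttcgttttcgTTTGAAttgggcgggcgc
ASPM: ggaggcggcaagTTTAAAcagagtcaaaac
CENPE: ggaaattttaaaTTTAAAggcggggcggcc
CKS1B: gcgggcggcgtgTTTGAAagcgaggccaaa
PTTG1: cgcgagttgtggTTTAAAccaggagtgcgc
CCNB2: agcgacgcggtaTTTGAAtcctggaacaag
HMMR: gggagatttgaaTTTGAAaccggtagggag

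With the base before the start counted as -1, the match began at -29 in MKI67, PTTG1 and CCNB2, at -30 in CKS1B, at -22 in HMMR, at -7 in ASPM and at -62 in CENPE. The windows shown are chr10:128126435-128126464 for MKI67, chr1:197146659-197146688 for ASPM and chr4:103198388-103198417 for CENPE, all on the minus strand. Those on the plus strand are chr1:154974639-154974668 for CKS1B, chr5:160421814-160421843 for PTTG1, chr15:59105105-59105134 for CCNB2 and chr5:163460598-163460627 for HMMR. The match was present in all 6 genes called in H82 and in 25 of the 28 others with a window. In H146 the called genes BIRC5 and HMGB2 had no window. It was present in all 6 called genes of H146 with a window and in 25 of the 28 others. With only 3 of the 34 genes lacking it, these counts cannot show whether it goes with the response.

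Values are TPM, in which the reads of a gene are divided by its length and each library is scaled to the same sum. In untreated H82 the highest member was CKS2, a CDK-binding subunit, at 985 ± 56.6 TPM (SD, n = 3). HMGB2, a chromatin protein, followed at 511 ± 13.3 TPM, and TOP2A, topoisomerase II alpha, at 490 ± 42.3 TPM. HMGB2 and TOP2A did not differ beyond their spread. In untreated H146 HMGB2 was highest, at 1301 ± 107 TPM (SD, n = 3), followed by CKS2 at 713 ± 77.5 TPM and the spindle factor TPX2 at 702 ± 67.0 TPM, which again lay within each other's spread. PRC1, a spindle midzone protein, was lowest in both lines, at 1.98 ± 0.47 TPM in H82 and 1.64 ± 0.17 TPM in H146. In the reference annotation 61.9% of its exon bases are shared with other genes, and how reads over them were assigned is not given in the sources used here.

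The libraries differed in ways that touch these genes. The summed TPM of the 42 genes was 6343 to 6571 in untreated H82, and 3657, 8406 and 8136 in treated H82 replicates 1, 2 and 3. Treated H82 replicate 1 was the lowest of its group for 40 of the 42 genes, at a median of 0.412 times the mean of the other 2, while 44.2% of all genes tested were lowest there. Treated H82 replicate 2 carried RNA typical of the other line: 91 genes at 20 TPM or more in every untreated H146 library and under 0.05 TPM in untreated H82 summed to 204 TPM in it, against 47.1 and 20.5 TPM in replicates 1 and 3, at most 0.24 TPM in untreated H82, and 7289 to 7833 TPM in untreated H146. INSM1 stood at 296 TPM there, against 32.1 and 33.9 TPM in the other treated H82 libraries and 12.5 to 15.8 TPM in untreated ones. The part of these differences in the results was not tested beyond the values given without each library. In H146 the summed TPM of the 42 genes was 8304 to 8700 without treatment and 6075, 7801, 7425 and 7752 in treated replicates 1 to 4. Treated H146 replicate 1 was the lowest of its group for 28 of the 42 genes, while 19.7% of all genes tested were lowest there. Among neuroendocrine markers in H82, SYP was at 193 to 212 TPM untreated and 31.5 to 58.1 TPM treated, CHGA at 114 to 159 and 14.3 to 62.5 TPM, NEUROD1 at 224 to 234 and 48.0 to 112 TPM, NCAM1 at 51.8 to 53.7 and 52.5 to 71.1 TPM, and DLL3 at 89.5 to 121 and 87.3 to 159 TPM. SYP, CHGA and NEUROD1 were thus lower in every treated H82 library. INSM1, a marker of the same kind with its values given above, was higher in every treated H82 library. These markers moved beside the mitosis genes, and their part in the changes of the mitosis genes was not tested. In H146, DLL3 was at 63.6 to 75.3 TPM untreated and 43.8 to 49.8 TPM treated, without overlap. INSM1 was at 1140 to 1405 TPM untreated and 758 to 1018 TPM treated there, also without overlap. SYP, CHGA and NCAM1 overlapped between the groups of H146 and were above 40 TPM in all 7 libraries, and NEUROD1 was at most 0.521 TPM. The mitochondrial share of TPM in H82 was 22.1% to 24.1% untreated against 12.3% to 14.9% treated.

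**Figure D1:**
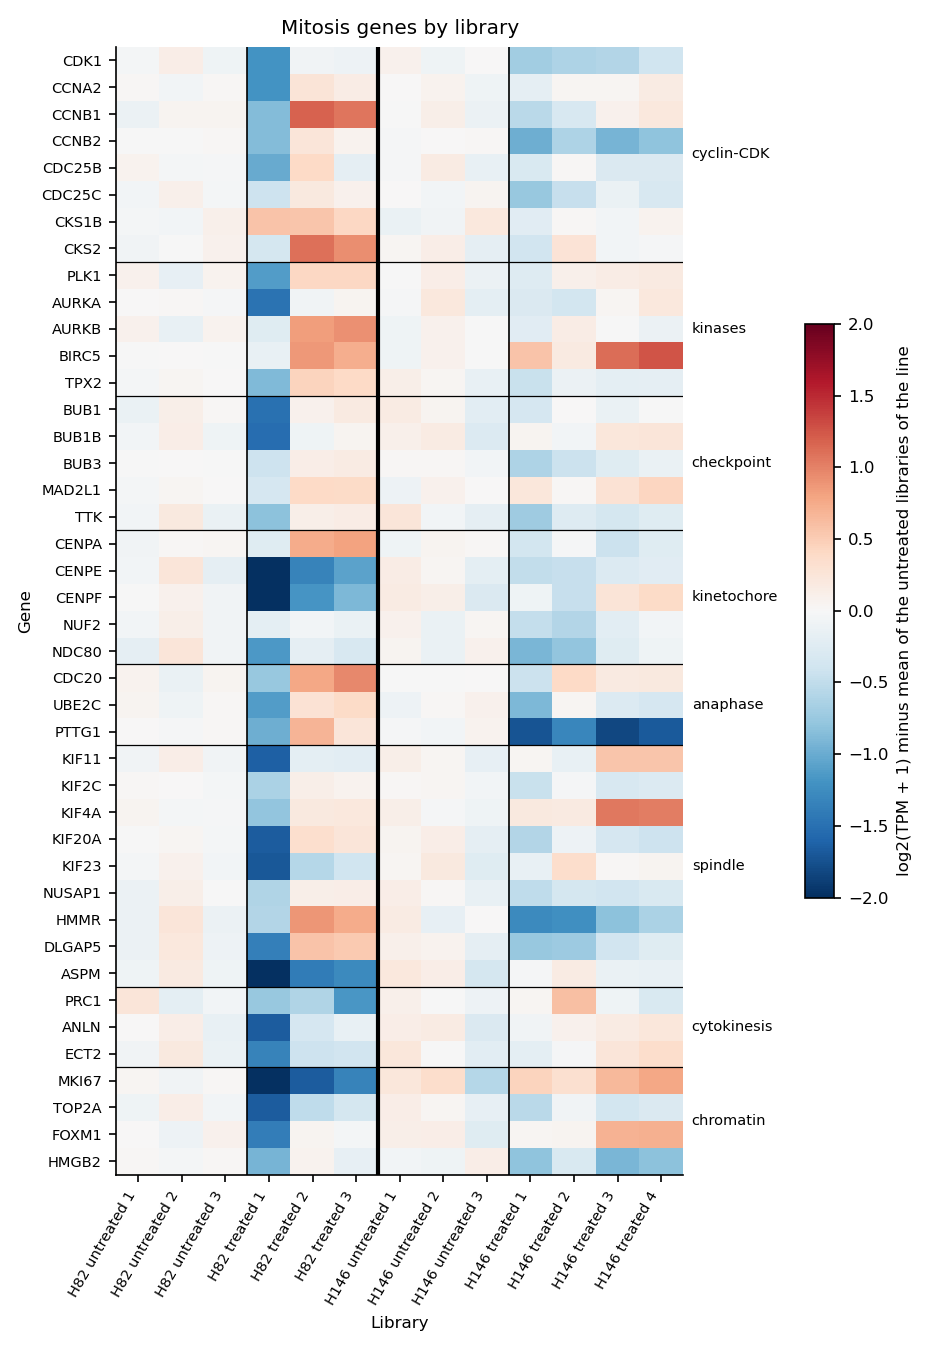
Each row is 1 of the 42 mitosis genes, grouped by role, and each column 1 of the 13 libraries. Colour shows log2(TPM + 1) minus the mean of the untreated libraries of the same line, with colours ending at -2 and 2. Treated H82 replicate 1 is the lowest treated H82 library for 40 of the 42 genes.

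In H82, few of the mitosis genes passed the test with all libraries in: 5 of 42 were lower and 1 was higher with FHD-286, at an adjusted p under 0.05 (limma on log2(TPM + 1), two-sided, adjusted over all genes tested). All 42 passed the filter on low values (1 TPM or more in 3 libraries), PRC1 only through its untreated libraries. Over all 19766 genes tested 58.6% were called, 45.5% lower and 13.1% higher. The median log2 fold change was -0.18 over the 42 genes and -0.56 over all genes tested. The libraries did not overlap for 12 of the 42 genes, 11 of them lower with treatment and 1 higher, where 51.4% and 16.4% of all genes were so placed. In bulk RNA, fewer dividing cells and less of these transcripts in each cell cannot be told apart.

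MKI67, which encodes the proliferation marker Ki-67, a coat protein of mitotic chromosomes, stood at 133, 123 and 132 TPM in untreated H82 and at 9.11, 40.2 and 50.8 TPM in treated replicates 1 to 3. All treated libraries lay below all untreated ones. The log2 fold change was -2.23 ± 0.57 (SE), or 4.68-fold lower on the log2(TPM + 1) scale (adjusted p = 0.0131, limma). Without untreated replicate 2 it did not pass (-2.26).

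ASPM, a spindle pole protein, was at 62.5, 76.1 and 62.5 TPM in untreated cells and at 8.72, 24.7 and 26.9 TPM with treatment, again without overlap. Its log2 fold change was -1.83 ± 0.39 (adjusted p = 0.00651). CENPE, the kinetochore motor that brings chromosomes to the metaphase plate, was at 27.6, 34.0 and 25.4 TPM untreated and 4.50, 10.8 and 13.1 TPM treated. CENPE fell by 1.62 ± 0.35 on the log2 scale (adjusted p = 0.00688). CENPF, a kinetochore protein and farnesylated partner of dynein regulators, was at 183, 195 and 176 TPM untreated and 29.3, 80.7 and 98.4 TPM treated. The groups did not overlap, and CENPF fell by 1.56 ± 0.42 (adjusted p = 0.0158), but it did not pass without untreated replicate 2 (-1.52) or under the median of ratios (-1.08).

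PRC1 passed the filter on low values only through its untreated libraries, so its call adds no support, and stood at 2.50, 1.60 and 1.85 TPM untreated and 0.757, 0.954 and 0.323 TPM treated (log2 fold change -0.84 ± 0.23, adjusted p = 0.0182). It did not pass without treated replicate 3 (-0.68), under the median of ratios (-0.57, adjusted p = 0.0788) or with no filter, it was not tested when an untreated library was left out, and its sign turned under quantile normalization (0.10). The 1 gene called higher was CKS1B, the CDK subunit that also helps SCF-SKP2 target p27, at 213, 211 and 234 TPM untreated and 324, 321 and 291 TPM treated. Its treated libraries lay above its untreated ones, with a log2 fold change of 0.51 ± 0.14 (adjusted p = 0.0161), which turned to -0.25 (adjusted p = 0.216) after the correction for transcript length described below. CKS1B also did not pass when treated replicate 2 or any untreated library was left out (0.48 to 0.56).

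The 4 genes with the largest falls in H82 were the 4 mitosis genes with the longest transcripts, at 8541 bases for CENPE, 10290 for CENPF, 10863 for ASPM and 12716 for MKI67. Over all 12180 protein-coding genes with a length, the median log2 fold change ran from 0.62 for transcripts of up to 1000 bases to -0.97 for those over 8000 bases. The Spearman correlation of log2 fold change with transcript length was -0.63 over the 42 genes and -0.41 over all of these coding genes, a description across genes that share their libraries. In the 3 treated libraries taken singly it was -0.58, -0.62 and -0.56 over the 42 genes. MKI67 lay below its class of 1052 transcripts over 8000 bases, of which 4.85% fell further. For ASPM, CENPE and CENPF the shares that fell further were 12.9%, 19.3% and 21.0%. When each library's curve over transcript length was taken off, a setting added after the data were seen, 3 of the 42 genes were lower and 1 was higher, where 29.5% and 13.3% of coding genes were. CENPE stayed called (log2 fold change -0.98, adjusted p = 0.0378), and PRC1, with the limit given above, was at -0.88. MKI67 (-1.34, adjusted p = 0.0811), ASPM (-1.03, adjusted p = 0.0522) and CENPF (-0.80, adjusted p = 0.134) no longer passed, while NUF2, the partner of NDC80, fell (-0.45, adjusted p = 0.0462) and BUB3 rose (0.52, adjusted p = 0.043). The part of transcript length in these changes was not tested.

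**Figure D2:**
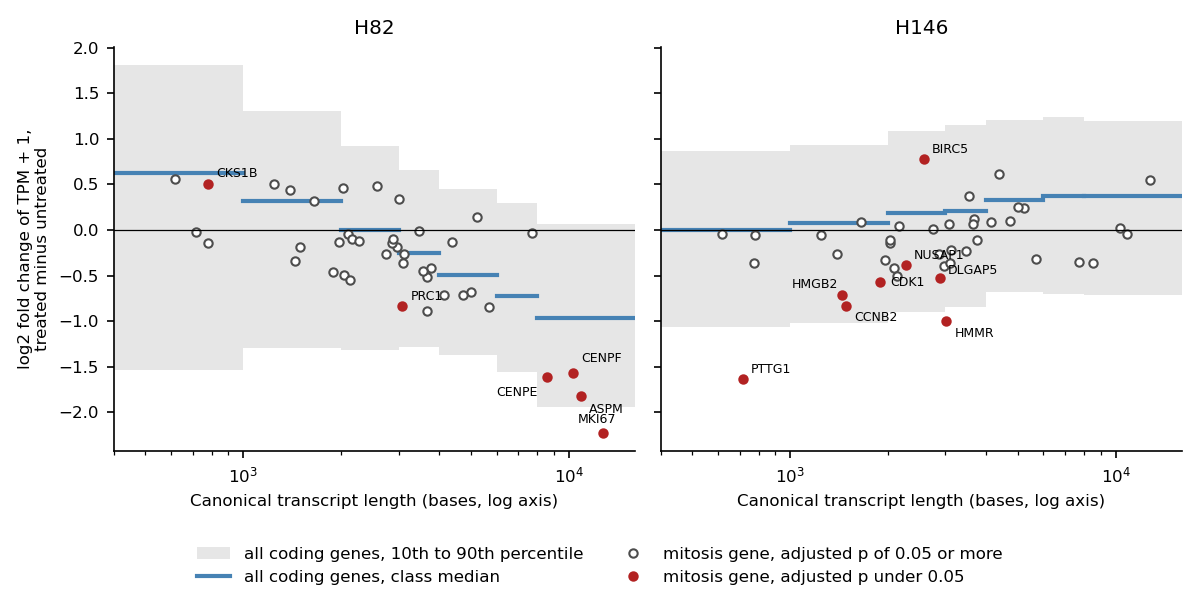
The log2 fold change (treated minus untreated, TPM + 1) of each mitosis gene is plotted against the length of its canonical transcript on a log axis, for H82 on the left and H146 on the right. Blue lines are medians of all coding genes in 7 length classes and grey bands their 10th to 90th percentiles. In H82 the class medians fall from 0.62 to -0.97 and the 4 longest mitosis genes lie at the lower right.

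The other members of H82 are given by role. Among the 8 cyclin and CDK genes only CKS1B passed, with a median log2 fold change of -0.11 over the role. CCNB1, cyclin B1, was at 156, 176 and 175 TPM untreated and 92.2, 382 and 355 TPM treated, and CKS2 at 933, 975 and 1045 TPM untreated and 772, 2102 and 1880 TPM treated. In both genes replicates 2 and 3 were above all untreated libraries and replicate 1 below them, and neither passed (adjusted p = 0.473 for CCNB1 and 0.252 for CKS2). None of the 5 genes of the Aurora and Polo-like kinases and their partners passed (PLK1, AURKA, AURKB, BIRC5 and TPX2, from -0.49 to 0.50), nor any of the 5 checkpoint genes (BUB1, BUB1B, BUB3, MAD2L1 and TTK, from -0.52 to 0.15), nor the 3 anaphase genes CDC20, UBE2C and PTTG1 (-0.15 to 0.32). Their intervals were wide: for PLK1 the 95% interval of the log2 fold change ran from -1.06 to 0.88, so these values do not show that the genes stayed level.

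Of the remaining kinetochore genes, CENPA, the centromeric histone, was at 0.44 ± 0.28 and NDC80, which binds microtubule ends, at -0.55 ± 0.28, neither past the test. Besides ASPM, none of the 9 spindle genes passed, the nearest being the midzone kinesin KIF23 at -0.89 ± 0.33 (adjusted p = 0.0528), with 63.8, 69.5 and 62.6 TPM untreated and 19.5, 43.6 and 49.3 TPM treated. KIF11 was lower without overlap (-0.68 ± 0.38, adjusted p = 0.166), and KIF2C was at -0.15 ± 0.22 with overlap. The cytokinesis genes ANLN, encoding anillin, and ECT2, the exchange factor for RhoA, stood at -0.72 ± 0.38 and -0.71 ± 0.28. TOP2A was at 461, 538 and 470 TPM untreated and 153, 343 and 384 TPM treated, without overlap (-0.84 ± 0.35, adjusted p = 0.072). FOXM1, the transcription factor of this programme, was at 44.5, 40.9 and 47.0 TPM untreated and 16.3, 45.9 and 42.8 TPM treated, with overlap.

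Without treated H82 replicate 1, a setting listed among the alternatives, 17 of the 42 genes were called higher and 8 lower, where 18.4% and 52.3% of all genes tested were. All 6 genes called with every library kept their direction and call. The higher genes took in 4 of the 8 cyclin and CDK genes, 4 of the 5 kinase genes and all 3 anaphase genes, with CCNB1 at 1.12 (adjusted p = 0.00019), CKS2 at 1.01, AURKB at 0.87 and CDC20, the mitotic activator of the anaphase-promoting complex, at 0.86. Of the 17, 8 had a negative value with all libraries, among them PLK1, TPX2, UBE2C and PTTG1. The lower genes, now with KIF23, ECT2 and TOP2A among them, included MKI67 at -1.50 and ASPM at -1.34. Without treated replicate 2 instead, 5 were lower and 0 higher with limma, where 42.6% and 9.03% of all genes were.

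**Figure D3:**
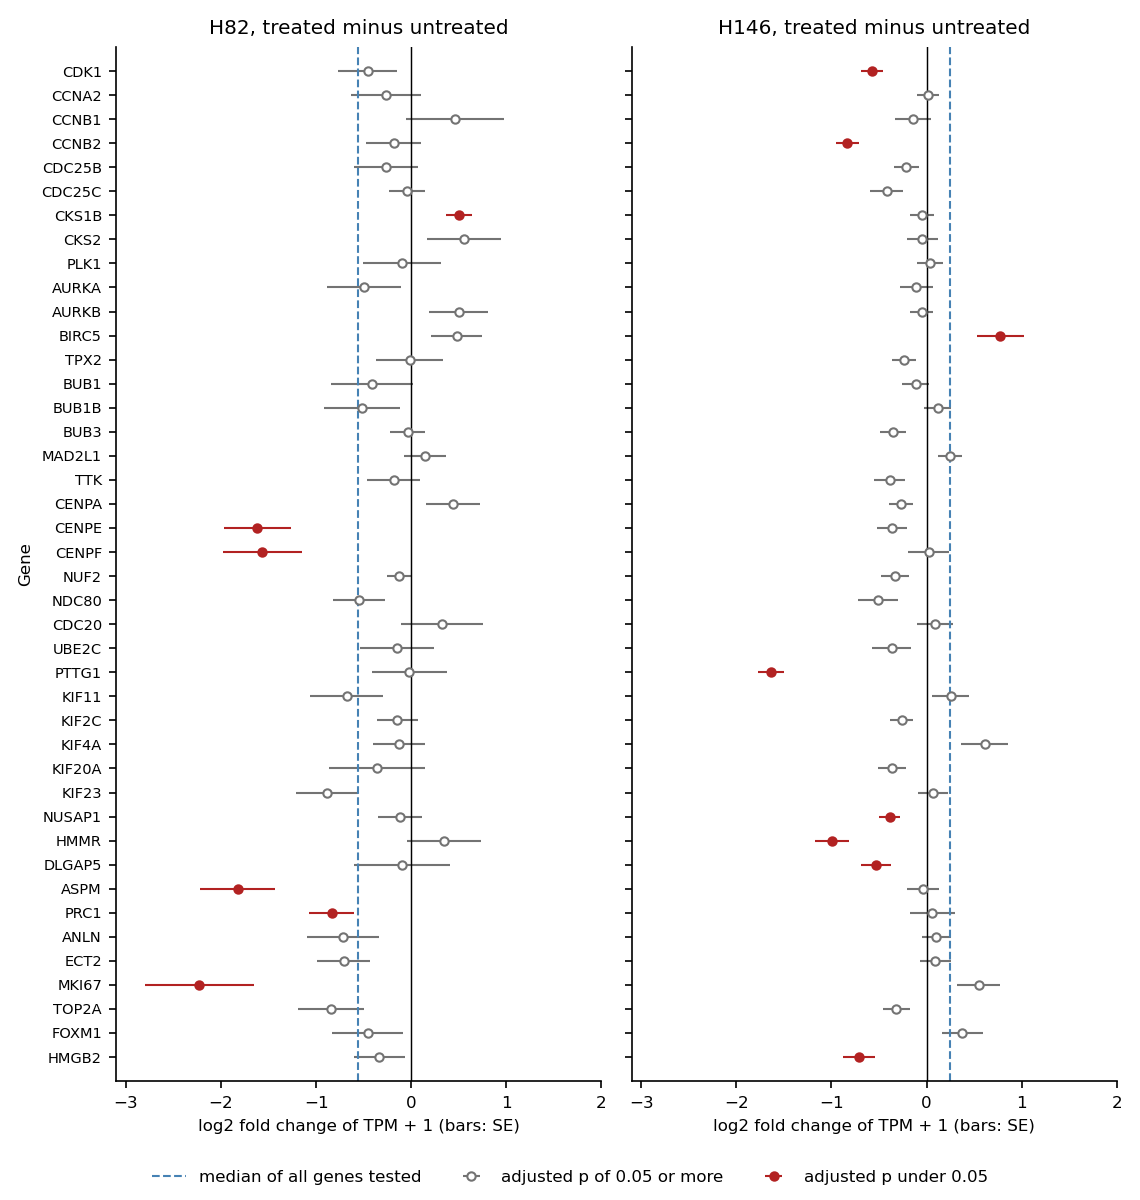
Points are log2 fold changes of TPM + 1 (treated minus untreated) of the 42 mitosis genes with their SE, in H82 (left) and H146 (right). Filled red points passed an adjusted p under 0.05, and the dashed line is the median of all genes tested, at -0.56 in H82 and 0.25 in H146.

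Shares within the 42 genes do not depend on how a library is scaled. They add to a fixed total, so a higher share of a gene lowers the shares of the others. No like count was made over all genes, so the counts of shares below are only a description. In H82, MKI67 made up 1.88% to 2.10% of the summed TPM of the 42 genes without treatment, and 0.25%, 0.48% and 0.62% in treated replicates 1 to 3. CENPF went from 2.71% to 2.97% to between 0.80% and 1.21%, while CKS2 went from between 14.7% and 16.1% to between 21.1% and 25.0%. The shares of 19 genes were lower and those of 5 higher in every treated H82 library than in every untreated one, the 5 being CKS2, AURKB, BIRC5, MAD2L1 and CENPA. In TPM all 5 overlapped between the groups. In H146, 5 shares were lower without overlap (CDK1, CCNB2, PTTG1, HMMR and HMGB2) and 10 higher, among them those of MKI67, FOXM1, BIRC5 and PLK1. In TPM, MKI67, FOXM1 and PLK1 overlapped between the groups of H146. The share of MKI67 there was 0.49% to 0.89% untreated and 0.98% to 1.37% treated.

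In H146, 7 of the 42 genes were lower with FHD-286 and 1 was higher, where 15.5% and 32.4% of all 19581 genes tested were, 47.9% in all. All 42 passed the filter. The median log2 fold change was -0.13 over the 42 genes and 0.25 over all genes tested. The libraries did not overlap for 11 genes lower and 2 higher, against 17.3% and 35.7% of all genes. Without treated H146 replicate 2, 13 were lower and 4 higher, where 19.6% and 39.3% of all genes were.

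PTTG1, which encodes securin, the inhibitor of separase that is destroyed at anaphase, stood at 387, 378 and 412 TPM in untreated H146 and at 117, 158, 110 and 121 TPM in treated replicates 1 to 4. The groups lay far apart. PTTG1 was 3.11-fold lower on the log2(TPM + 1) scale, with a log2 fold change of -1.64 ± 0.14 (adjusted p = 8.22e-05, limma).

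CCNB2, cyclin B2, was at 87.8, 90.7 and 90.8 TPM untreated and at 45.1, 57.9, 46.6 and 51.0 TPM treated (-0.83 ± 0.12, adjusted p = 0.000873). Its partner CDK1 was at 264, 236 and 251 TPM untreated and at 153, 163, 167 and 190 TPM treated (-0.57 ± 0.11, adjusted p = 0.0041). In both genes every treated library lay below every untreated one. CCNB1 and CCNA2, the other cyclins of mitotic entry, did not pass, at -0.14 ± 0.19 and 0.02 ± 0.12. CDC25C was lower without overlap but did not pass (-0.42 ± 0.17, adjusted p = 0.0694).

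HMMR, a microtubule-binding spindle protein also known as RHAMM, was at 65.7, 52.5 and 58.8 TPM untreated and 23.6, 24.4, 32.8 and 37.3 TPM treated (-0.99 ± 0.18, adjusted p = 0.00294). DLGAP5, a microtubule-stabilising spindle protein known as HURP, was at 87.6, 85.5 and 71.9 TPM untreated and 47.5, 48.8, 62.4 and 68.3 TPM treated (-0.53 ± 0.16, adjusted p = 0.0249). NUSAP1, which bundles spindle microtubules, was at 280, 260 and 231 TPM untreated and 180, 201, 196 and 206 TPM treated (-0.39 ± 0.11, adjusted p = 0.0206). None of the 3 overlapped between groups, and 86.8% of the exon bases of NUSAP1 are shared with other annotated genes. HMGB2 was at 1256, 1224 and 1423 TPM untreated and 742, 1056, 691 and 735 TPM treated (-0.71 ± 0.17, adjusted p = 0.00895), with treated replicate 2 above the other 3. DLGAP5 and NUSAP1 each missed the threshold when untreated replicate 1 or 2 was left out, DLGAP5 also without treated replicate 1 and NUSAP1 without treated replicate 3.

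BIRC5, survivin, the subunit that brings AURKB to the centromere, was the 1 gene called higher. It stood at 158, 179 and 167 TPM untreated and at 249, 190, 365 and 402 TPM treated, with replicate 2 nearest to the untreated libraries. The log2 fold change was 0.78 ± 0.25 (adjusted p = 0.0306), and it did not pass under the median of ratios (0.46, adjusted p = 0.129) or when treated replicate 3 or 4 or any untreated library was left out (0.62 to 0.82). MKI67 was at 71.3, 77.6 and 40.6 TPM untreated and 83.4, 76.5, 95.9 and 105 TPM treated, and the groups overlapped (0.55 ± 0.23, adjusted p = 0.0745). The kinesin KIF4A did not overlap but did not pass (0.61 ± 0.25, adjusted p = 0.0702).

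None of the 5 checkpoint genes and none of the 5 kinetochore genes passed in H146. BUB3, at 228, 229 and 217 TPM untreated and 147, 167, 190 and 204 TPM treated, and TTK, the checkpoint kinase MPS1, were lower without overlap, with adjusted p = 0.0571 and 0.0737. CENPE, which fell in H82, was also lower without overlap in H146 but did not pass (-0.37 ± 0.16, adjusted p = 0.0819). It passed there after the length correction (-0.51, adjusted p = 0.0152) and under the median of ratios (-0.65, adjusted p = 0.0045). CENPF and ASPM, which fell in H82, were at 0.02 ± 0.22 and -0.04 ± 0.17 in H146, with 95% intervals of -0.48 to 0.52 and -0.42 to 0.35. Over the 42 genes the Spearman correlation of log2 fold change with transcript length was 0.44, against 0.15 over 12771 coding genes, so the sign was the opposite of that in H82. After the length correction all 8 calls of H146 remained, with 10 genes lower and 1 higher, where 18.8% and 36.3% of coding genes were.

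**Figure D4:**
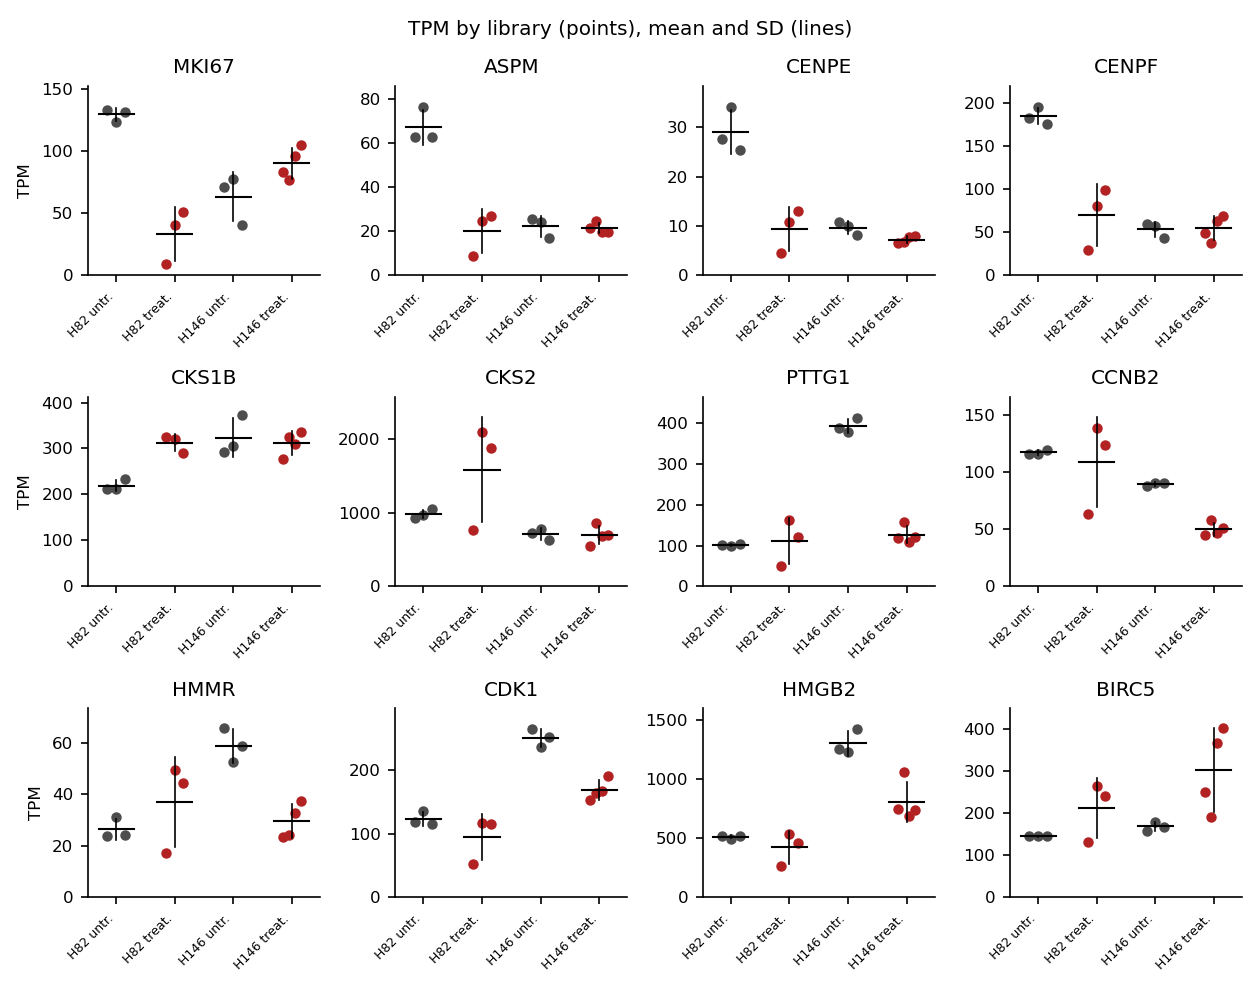
Points are TPM of 12 mitosis genes in each library, untreated in grey and treated in red, with the mean and SD of each group as lines and axes from 0. MKI67, ASPM, CENPE and CENPF separate in H82, and PTTG1, CCNB2, HMMR, CDK1 and HMGB2 separate in H146.

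Scaling between libraries set how many members were called. The median of ratios, which centres each library on its typical gene, moved the median log2 fold change of all genes tested in H82 from -0.56 to -0.14, and that in H146 from 0.25 to -0.02. On that scale 8 of the 42 genes were higher and 3 lower in H82, where 24.2% and 32.9% of all genes were, and none was higher and 23 were lower in H146, where 21.3% and 25.1% were. MKI67 (-1.75), ASPM (-1.35) and CENPE (-1.16) stayed lower in H82, and PTTG1 (-1.96), HMMR (-1.31) and CCNB2 (-1.15) in H146. The 23 in H146 held 5 of the 8 cyclin and CDK genes, 3 of the 5 checkpoint genes and 4 of the 5 kinetochore genes. The median over the 42 genes on that scale was 0.30 in H82 and -0.44 in H146.

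The difference between the lines was tested directly, as the effect in H82 minus the effect in H146, in 1 fit over all 13 libraries. It passed for 9 of the 42 genes, where 60.2% of all 23672 genes passed, 46.5% with a lower value in H82 and 13.7% with a higher one. In 6 the value was lower in H82: MKI67 at -2.78 ± 0.64 (adjusted p = 0.0025), ASPM at -1.79 ± 0.44 (adjusted p = 0.00376), CENPF at -1.59 ± 0.49, CENPE at -1.25 ± 0.39, KIF23 at -0.96 ± 0.37 and PRC1 at -0.90 ± 0.32. In 3 it was higher in H82: PTTG1 at 1.62 ± 0.43 (adjusted p = 0.00591), HMMR at 1.34 ± 0.44 (adjusted p = 0.0195) and CKS1B at 0.56 ± 0.18 (adjusted p = 0.0172). PTTG1 illustrates the contrast, at 102, 99.7 and 103 TPM untreated and 50.9, 163 and 120 TPM treated in H82, where its groups overlapped, against the 3.11-fold fall in H146. After the median of ratios 18 genes passed with a higher value in H82 and 1, MKI67, with a lower one, where 26.3% and 31.1% of all genes did. Without treated H82 replicate 1, 18 passed with a higher value and 6 with a lower one, where 14.8% and 47.6% of all genes did. The 4 genes whose difference missed the threshold in at least 1 fit with a library left out were KIF23 (8 of 13 fits, -0.99 to -0.84 there), PRC1 (5 of 13, -0.93 to -0.74), HMMR (without treated H82 replicate 2 or 3, 1.07 and 1.14) and CKS1B (without untreated H146 replicate 3, 0.45). After the length correction, under which 15.5% of coding genes were higher and 37.5% lower, the difference remained for MKI67, ASPM, HMMR and PRC1 and turned sign for CKS1B (-0.23, adjusted p = 0.266), while PRC1 turned sign under quantile normalization (0.29).

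**Figure D5:**
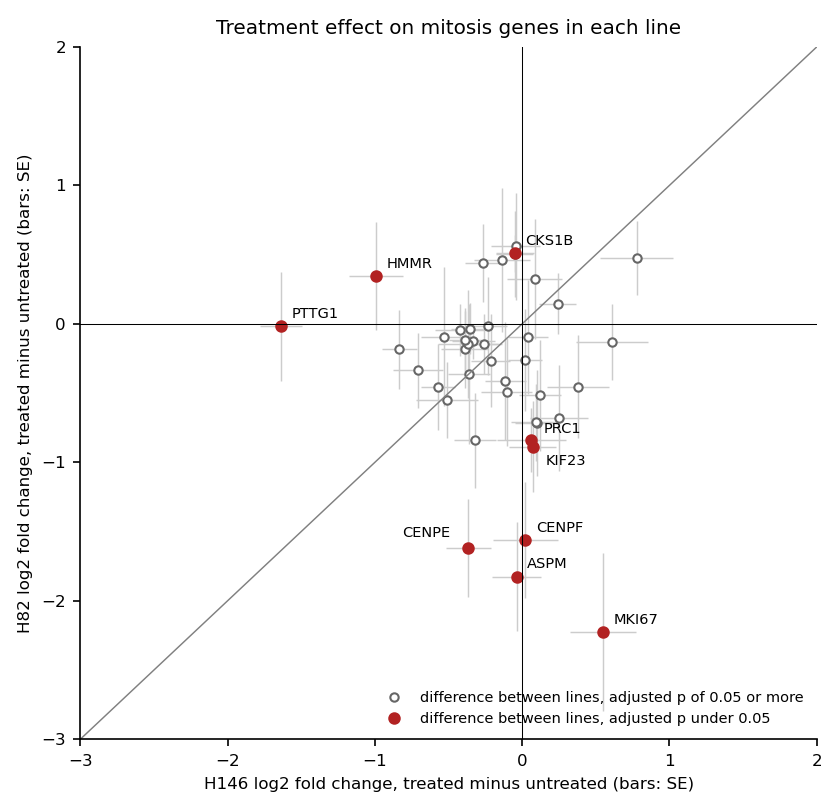
Each point is 1 of the 42 mitosis genes, with its log2 fold change in H146 on the horizontal axis and in H82 on the vertical axis, bars of 1 SE, and the diagonal where both are equal. Red points are the 9 genes whose difference between the lines passed an adjusted p under 0.05, with MKI67 lowest in H82 and PTTG1 lowest in H146.

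A further 133 genes of mitosis, in 7 lists, were read in the same fits. In H82, 38 were lower and 9 higher of the 132 tested, where 45.5% and 13.1% of all genes were, with a median log2 fold change of -0.33. In H146, 20 were lower and 25 higher of 132, where 15.5% and 32.4% of all genes were, with a median of 0.07. With the median of ratios the counts were 11 lower and 27 higher in H82, where 32.9% and 24.2% of all genes were. In H146 they were 44 lower and 14 higher on that scale, where 25.1% and 21.3% of all genes were. The counts of each list are to be read against the shares of all genes in the same fit. Of 28 further kinetochore genes, 5 were lower and 6 higher in H82, led by CASC5 (KNL1, the scaffold of checkpoint signalling) at -1.54 ± 0.32 and CENPW, a subunit of the inner kinetochore, at 1.27 ± 0.27. In H146, 6 were lower and 6 higher, with SKA1, a microtubule coupler, at -1.34 ± 0.15 and SPC24, a subunit of the NDC80 complex, at 1.54 ± 0.23. After the length correction CENPW did not pass in H82 (0.53, adjusted p = 0.212). In H146 it fell (-0.81 ± 0.17, adjusted p = 0.00564), and SPC24 rose in both lines (1.16 ± 0.22 in H82).

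Of 19 genes of the anaphase-promoting complex and linked genes, 5 were lower and 2 higher in H82 (ANAPC1 at -1.09, ANAPC11, the RING subunit, at 0.97) and 3 lower and 7 higher in H146 (ANAPC16 at -0.93, ANAPC2, the cullin subunit, at 0.93). The linked genes UBE2S, UBE2D1, FBXO5 and ESPL1 are not subunits of the complex. Of these, UBE2S was called higher and UBE2D1 lower in H82, and ESPL1 and UBE2D1 higher and FBXO5 lower in H146. ANAPC1 did not pass under the median of ratios (-0.62, adjusted p = 0.0876) or the length correction (-0.53, adjusted p = 0.139), nor did ANAPC11 under the latter (0.16, adjusted p = 0.452). Of 23 condensin and cohesin genes, 11 were lower and 0 higher in H82 by limma, the lowest being NIPBL, the cohesin loader, at -1.76 ± 0.27. In H146, 2 of them were lower, led by SMC4 at -0.48, and 4 higher, led by NCAPD2 at 0.80, both condensin subunits. The 11 lower in H82 with all libraries stand beside 45.5% of all genes. Without treated H82 replicate 1 the condensin and cohesin counts were 12 lower and 3 higher, where 52.3% and 18.4% of all genes were. With the median of ratios they were 1 and 1 in H82 (32.9% and 24.2% of all genes). With the length correction they were 5 and 0 in H82 (29.5% and 13.3% of coding genes). Of 25 other motor and cytokinesis genes, 6 were lower in H82 (KIF14, a kinesin of cytokinesis, at -1.52 ± 0.36), and in H146, 3 were lower, led by the spindle-associated CKAP2 at -0.90, and 1 higher, the tubulin gene TUBA1B at 0.61, which did not pass under the median of ratios (0.29, adjusted p = 0.16).

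Of the 11 further checkpoint genes, 1 was lower in H82, KNTC1 of the ROD-ZW10-ZWILCH complex, at -1.41 ± 0.16, and in H146, 2 were lower, led by NEK2, a centrosomal kinase, at -0.64, and 2 higher, led by GSG2 (HASPIN, a histone H3 kinase) at 0.84. GSG2 did not pass under the median of ratios (0.54, adjusted p = 0.139) or without treated replicate 1 (0.88, adjusted p = 0.0744). Among 14 genes of DREAM, MYB-MuvB and the related E2F and RB1 regulators, 5 were lower in H82. They were led by RB1, the retinoblastoma protein gene, at 7.78 ± 0.62 TPM untreated and 1.64 ± 0.05 TPM treated (SD, n = 3 each), a log2 fold change of -1.73 ± 0.18. In H146, E2F1, the activator of cell cycle genes, was at 614 ± 80.4 TPM untreated (SD, n = 3) and 284 ± 36.8 TPM treated (SD, n = 4), a log2 fold change of -1.11 ± 0.14. E2F4, the E2F subunit within the DREAM complex, was at 0.51 ± 0.16 in H146 but did not pass under the median of ratios (0.19, adjusted p = 0.297). Of 12 tested genes of mitotic entry, 5 were lower and 1 higher in H82 (G2E3 at -1.36, ENSA, an inhibitor of PP2A, at 0.89), and 2 lower and 3 higher in H146 (CCNA1, cyclin A1, at -1.61 ± 0.33, and CCNF, cyclin F, at 1.06 ± 0.23). ENSA did not pass after the length correction (0.28, adjusted p = 0.152).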

How the data were processed

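RNA-seq of 13 libraries was read from 2 tables of TPM values that the authors deposited, 1 per line. Per the processing notes and the paper, reads were trimmed (Trim Galore 0.4.4) and counted per gene on hg38 with STAR and GENCODE release 28. Each column sums to 1000000, so depth is unknown and no count test was run. Means and SD are of TPM. Each line was fitted with limma 3.58.1 (R 4.3.3, eBayes with trend) on log2(TPM + 1), with treatment as the only term. A gene was tested where 3 or more libraries of that line reached 1 TPM, and p-values were adjusted by Benjamini and Hochberg across every gene tested. The fit was also run on simulated data, with every library drawn independently at the spread of the untreated libraries. That run held no shift of a whole library and no trend with transcript length, so it does not speak to either. The difference between lines was the interaction in 1 fit over all libraries. Transcript lengths came from GENCODE release 44, promoter windows from RefSeq (GRCh38.p14). Levels were set across the tables of both lines only to choose the genes typical of 1 line, and no test was made of them. 29 symbols had become dates, and 4 rows sharing one were left out. The 42 genes and the lists were chosen with earlier results of these data known. All 42 are named. Of each list, the largest rise and fall past the threshold in each line are named, and 5 genes of the table that varied most like the mean of the 42. Alternatives were other scalings, pseudocounts, filters, weights, a replicate block and each library left out, with a length correction (lowess, span 0.3) added after seeing the data.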

Additional observations from a re-analysis of the deposited data

Results flagged for a closer look

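In 9 of the 42 mitosis genes the effect of FHD-286 differed between the lines by the test of the difference itself (effect in H82 minus effect in H146, log2). Of all 23672 genes tested, 60.2% passed that test. Of the 9, PRC1 was under 1 TPM in every treated H82 library, and its difference turned sign under quantile normalization. The values were -2.78 for MKI67, -1.79 for ASPM, -1.59 for CENPF, -1.25 for CENPE, -0.96 for KIF23, -0.90 for PRC1, 0.56 for CKS1B, 1.34 for HMMR and 1.62 for PTTG1. Beside them stand the transcript lengths, since MKI67, ASPM, CENPF and CENPE were the 4 longest of the 42 transcripts and PTTG1 and CKS1B were under 1000 bases, at 715 and 779. The part of transcript length in the difference was not tested.

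In treated H146, 1 library lay apart from the other 3 for 2 genes, by a test of the gap between neighbouring values over the group's range. Both were the highest library, replicate 2, at 123 TPM for CDC25B (the other 3 at 98.4 to 99.6 TPM) and 1056 TPM for HMGB2 (the others at 691 to 742 TPM). Groups of 3 were not tested, which left 42 tests, and chance flags about 1 in 20.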

How the results depend on the processing

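The counts of called mitosis genes depended on the scaling and on single libraries, and the cause was not tested. With all libraries they were 1 higher and 5 lower in H82, 1 and 7 in H146, and 3 and 6 for the effect in H82 minus that in H146. For the 133 other mitotic genes they were 9 and 38 in H82 and 25 and 20 in H146. Scaling by the median of ratios gave 8 and 3 in H82, 0 and 23 in H146 and 18 and 1 for the difference, with 27 and 11, and 14 and 44, for the other genes. It turned the sign of BUB3 (0.45) and NUF2 (0.36) in H82, of CCNA2 in H146 (-0.30) and of MAD2L1 in the difference (0.71), each then past the threshold. Library weights gave 11 and 8, 6 and 17, and 18 and 10, with 26 other genes higher in H82 and 56 in H146, and turned TPX2 (0.38) and DLGAP5 (0.54) in H82. Quantile normalization gave 11 lower in H82, 15 lower in H146 and 5 higher in the difference, with 21 other genes higher in H82, and turned PRC1 in H82 (0.10) and in the difference (0.29). The length correction gave 3 lower in H82 and in the difference and 5 other genes higher in H82, and turned CKS1B in H82 (-0.25) and in the difference (-0.23), and BUB3 in H82 (0.52). Without mitochondrial genes 0 were higher and 8 lower in H82, and without a filter 0 were higher in H146. A log2 change of at least 1 left 0 higher in either line and 1 lower in H146, with 2 and 14 other genes in H82 and 3 and 3 in H146. Of all genes tested, the shares called higher and lower were 20.1% and 53.0% in H82, 46.7% and 24.5% in H146 and 17.7% and 53.8% for the difference with weights. With quantile normalization they were 25.6% and 28.1%, 23.7% and 21.0%, and 25.9% and 26.5%. They were 10.7% and 50.2% in H82 without mitochondrial genes, 14.4% and 7.57% in H146 without a filter, and 6.86% and 34.4% in H82 and 14.6% and 7.87% in H146 at a log2 change of at least 1.

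Deviations of libraries with the same replicate number correlated from -0.11 to 0.03, and those with other numbers from -0.04 to 0.11. These values show no sign of pairing by number, and with so few libraries in a group they cannot exclude it. With the replicate block 0 were higher in H82 and in H146, and 14 other genes were higher in H146, where 11.8% and 24.2% of all genes were.

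Leaving out 1 library gave 0 to 17 higher and 2 to 8 lower in H82, 0 to 4 and 5 to 13 in H146, and 2 to 18 and 4 to 8 for the difference. The shares of all genes ran from 9.03% to 18.4% higher and 26.2% to 52.3% lower in H82, 22.6% to 39.3% and 9.59% to 19.6% in H146, and 11.1% to 14.8% and 37.7% to 48.6% for the difference. For the other genes it gave 7 to 29 and 21 to 53 in H82, and 15 to 38 and 10 to 21 in H146. The highest counts were those without treated H82 replicate 1 (17 higher, 8 lower) and without treated H146 replicate 2 (4 higher, 13 lower), and the lowest count of lower genes in H82, 2, was that without untreated replicate 2. The sign turned, then past the threshold, without treated H82 replicate 1 in 8 genes, whose values with 1 library left out ran from -0.52 to 0.20 for CCNA2, -0.35 to 0.42 for PLK1, -0.24 to 0.42 for TPX2, -0.41 to 0.34 for UBE2C, -0.37 to 0.46 for PTTG1, -0.30 to 0.20 for KIF4A, -0.71 to 0.29 for KIF20A and -0.42 to 0.54 for DLGAP5. Without untreated H82 replicate 2, MKI67 (-2.26), CENPF (-1.52) and CKS1B (0.48) did not pass and PRC1 was not tested, while ASPM and CENPE passed. In H82, CENPE kept its direction and call in every setting run, and ASPM in all but the length correction. In H146, PTTG1 kept its call in every setting, and CCNB2, HMMR, CDK1 and HMGB2 in all but that of a log2 change of at least 1, which each fell short of. TPM holds no read counts, so no interval for counting error is given.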

Other observations

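Among all tested genes other than the 42, the 5 whose log2(TPM + 1) varied most like the mean of the 42 mitosis genes over the 6 H82 libraries were CHRNA3, WDR82, HACD3, PPP2R1B and ARSB, with Pearson's r from 0.998 to 0.999 among 19724 genes. Over the 7 H146 libraries they were EDIL3, TUBB2BP1, EIF2B5, BRPF1 and SOCS2, with r from 0.963 to 0.974 among 19539 genes. The libraries share their treatment groups, and in H82 the low treated replicate 1 is 1 of the 6 points, so these values only describe likeness. No gene was in both sets of 5.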
